A study of Mus musculus with 144 samples.

Results

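Gpr84 was examined together with 6 other G protein-coupled receptors that myeloid cells can induce: Hcar2, Gpr183, Ptafr, Fpr1, Fpr2 and Ptger4. These 7 genes were taken by symbol from the 55364 genes of the deposited table, and no measured value enters that rule. The RNA came from wells on 3 plates, each holding 1 cell labelled as a microglia, sorted from the retina of Iba1-EGFP mice (C57BL/6, 20 to 22 months old). By their titles, 54 wells came from uncrushed eyes, 36 from day 2 and 54 from day 4 after optic nerve crush. The Iba1 promoter marks macrophages as well as microglia, and the labels name no animal, so each group counts as 1 sample and no p-value is given. On each plate every group kept its own rows (A to C uncrushed, D and E day 2, F to H day 4), so row and group cannot be told apart. The title of the series places Gpr84 in a microglial subset that makes Tnf and Il1a after this injury. The labels conflict for 18 day 4 wells of plate 1, whose treatment tag gives day 2. Shares, level differences, co-detection, list counts and cytokine counts at day 4 are also given without them, and all other day 4 values include them. The comparisons asked which other receptors the same wells held, and when.

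G protein-coupled receptors carry extracellular signals across the membrane to heterotrimeric G proteins. Gpr84 senses medium-chain fatty acids and Hcar2 senses the ketone body beta-hydroxybutyrate and niacin. Both couple to inhibitory G proteins. Gpr183 guides cells along gradients of oxysterols, Ptafr binds platelet-activating factor, and Fpr1 and Fpr2 bind formylated peptides and guide neutrophils and other phagocytes. Ptger4 binds prostaglandin E2 and raises cyclic AMP. In resting microglia the leading members of the superfamily are P2ry12 and Cx3cr1, and inflammatory stimuli are known to raise Gpr84.

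The promoters of Gpr84 and Gpr183 are shown because 13 of the 16 deep wells with Gpr183 also held Gpr84, a share that none of the other receptors reached. The RefSeq table (GRCm38.p6) held 6 of the 7 receptors, as 250 bases before to 50 bases after the start of the gene. The Gpr84 promoter is chr15:103310389-103310688 and the Gpr183 promoter is chr14:121965144-121965443, both on the minus strand and written 5′ to 3′ along the gene. Capitals mark every match to the motifs searched.
Gpr84: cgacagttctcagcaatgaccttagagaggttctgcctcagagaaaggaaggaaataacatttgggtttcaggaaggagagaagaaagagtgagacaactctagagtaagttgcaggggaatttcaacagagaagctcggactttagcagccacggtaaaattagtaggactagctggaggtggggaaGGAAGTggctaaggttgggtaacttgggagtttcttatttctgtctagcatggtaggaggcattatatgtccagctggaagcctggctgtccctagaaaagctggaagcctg
Gpr183: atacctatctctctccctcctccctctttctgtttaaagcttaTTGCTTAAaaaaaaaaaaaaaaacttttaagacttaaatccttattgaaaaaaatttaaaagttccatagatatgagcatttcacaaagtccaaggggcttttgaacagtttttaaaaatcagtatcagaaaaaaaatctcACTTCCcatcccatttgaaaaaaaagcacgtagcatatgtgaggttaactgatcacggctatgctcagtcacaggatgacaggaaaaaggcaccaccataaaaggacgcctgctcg
Both held the ETS motif GGAAGT, bound by factors such as PU.1, at bases -62 to -57 in Gpr84 and, on the opposite strand as ACTTCC, at -66 to -61 in Gpr183. That motif stood in 23.8% of the 32851 promoters of the table, both strands counted. Gpr183 also held the C/EBP motif TTGCNNAA, as TTGCTTAA, at -207 to -200, which 10.8% of promoters held. TATAAA stood far upstream in Fpr1 (-227 to -222) and Fpr2 (-130 to -125), and in 13.6% of promoters. The other motifs searched, on both strands, were AP-1 (TGANTCA), CRE (TGACGTCA), NF-kB and ISRE (GAAANNGAAA), which 7.81%, 1.79%, 4.51% and 3.44% of promoters held. The matches shown do not overlap each other. None of these matched in the 6 windows, and a match or its absence here describes letters only.

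Depth split the wells. In 88 deep wells between 60079 and 8065036 reads were assigned to genes, and in 56 shallow wells between 643 and 14205. Deep wells numbered 39 of 54 uncrushed, 25 of 36 at day 2 and 24 of 54 at day 4, and plate 3 gave 2 of the day 4 deep wells. A receptor was called found in a deep well at 10 or more reads. Levels are given as reads per 1000000 reads assigned to genes, or as FPKM, which also divides by gene length, where genes are compared. Of the 11 microglia markers, Ctss was found in 86 of the 88 deep wells, Cx3cr1 in 58 and P2ry12 in 48. Neutrophil genes stood apart: 9 deep wells held 5 or more of 11 neutrophil markers. Each of the 12 monocyte and macrophage markers was found in at most 4 deep wells, with summed levels of up to 47337 reads per 1000000 in a day 4 well, and the 5 endothelial markers in 0. Deep wells held a median of 3161 genes with a read when uncrushed, 3777 at day 2 and 4992 at day 4, so that groups also differed in how many genes they showed.

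Of the 7 receptors, Gpr84, Hcar2, Gpr183 and Ptafr were found in a larger share of deep wells at day 4 than in uncrushed wells. The differences were 37.2, 22.1, 29.8 and 19.9 percentage points, beside a median of 19.9 over genes found in 10 to 90% of deep wells. Gpr84, Hcar2 and Gpr183 often lay in the same wells. At day 4, 63.8% of genes found in 10 to 90% of wells were at least 25 points more frequent beside Gpr84. Gpr84 was found in 12 of 24 deep wells at day 4 against 5 of 39 uncrushed wells. Gpr183 was found in 9 of 24 against 3 of 39, and Hcar2 in 9 of 24 against 6 of 39. Fpr1 and Fpr2 were found in no deep well with Gpr84 and in no deep well with fewer than 5 neutrophil markers. That line of 5 was drawn after the values were seen. Fpr1 was found in 6 deep wells and Fpr2 in 1. How many equally rare genes also missed the Gpr84 wells was not counted. Ptger4 was found in 2 of the 88 deep wells. In 46 of the 88 deep wells 0 of the 7 were found, in 19 wells 1, in 9 wells 2, in 8 wells 3 and in 6 wells 4.

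**Figure D1:**
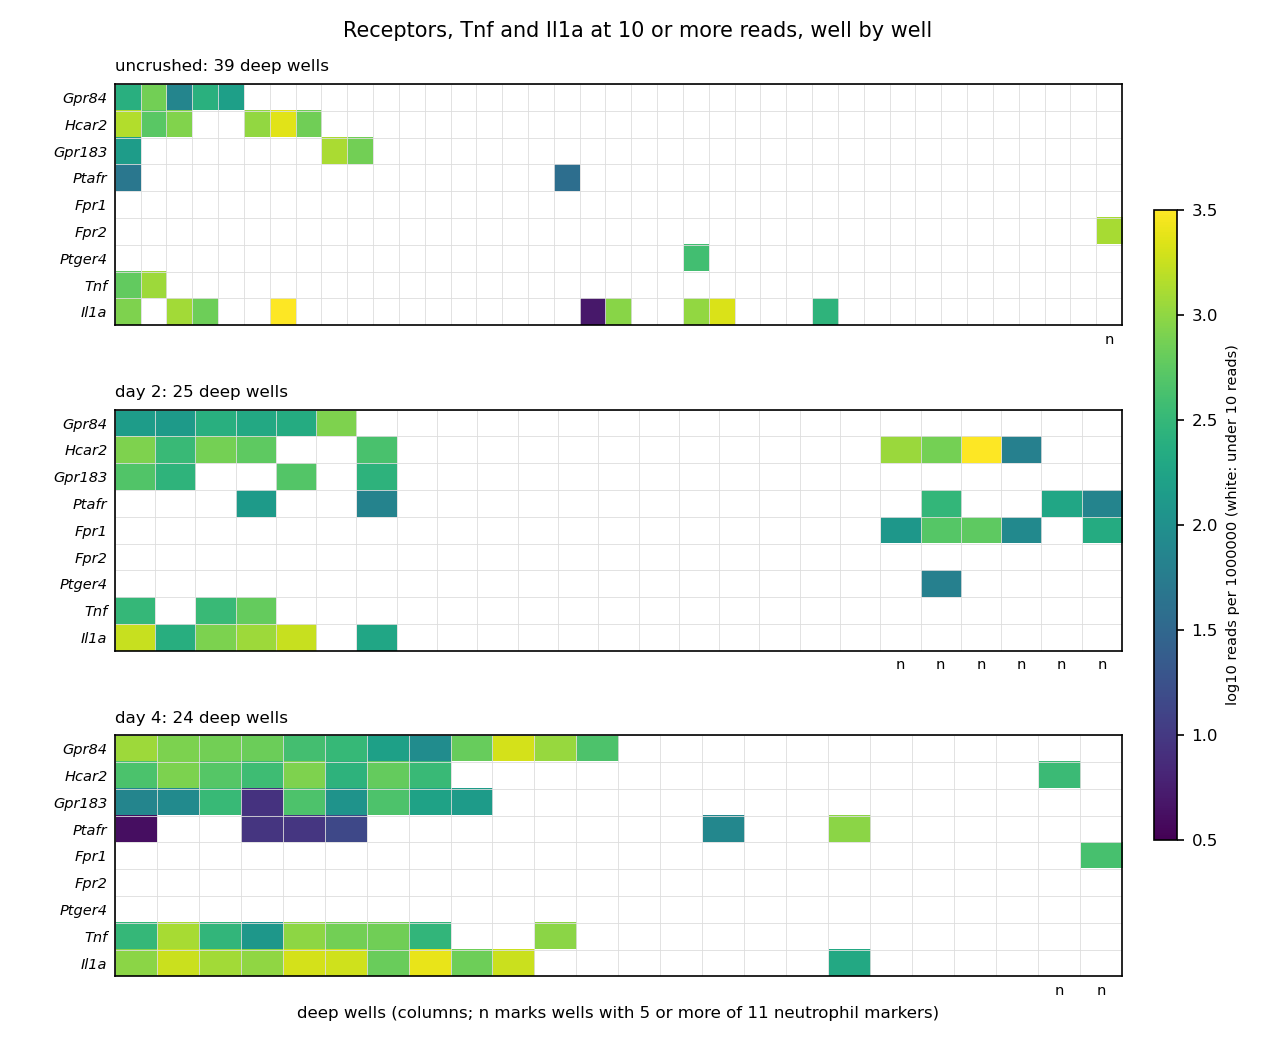
Each column is 1 deep well and each row 1 gene (7 receptors, Tnf and Il1a). Colour gives log10 reads per 1000000 where the gene had 10 or more reads, white is fewer, and n marks wells with 5 or more of 11 neutrophil markers. At day 4, 8 wells at the left hold Gpr84, Hcar2, Gpr183, Tnf and Il1a together, and Fpr1 and Fpr2 stand in wells marked n.

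Gpr84 was present or nearly absent in each deep well, with little between. The 23 wells with Gpr84 held 20 to 2797 reads of it, while the deep wells below 10 reads held at most 3. In uncrushed wells it measured 73.4, 157, 249, 257 and 732 reads per 1000000. At day 2 it measured 136, 142, 204, 223, 250 and 823, and at day 4 the 12 wells ran from 91.5 through a median of 651 to 2030. Of the 12 day 4 wells, 3 lay above every uncrushed and day 2 well, and the ranges of the 3 groups overlapped. The share of deep wells with Gpr84 was 12.8% uncrushed (exact Clopper-Pearson 95% interval 4.30 to 27.4), 24% at day 2 (9.36 to 45.1) and 50% at day 4 (29.1 to 70.9). All intervals here cover counting error only, since reads carry no molecular identifiers and wells may share an animal. Day 4 counts were 5 of 12 wells on plate 1, 7 of 10 on plate 2 and 0 of 2 on plate 3. Without the 18 wells with conflicting labels, 12 deep wells were left at day 4, of which 7 held Gpr84, 5 Hcar2, 6 Gpr183 and 3 Ptafr.

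Higher shares at day 4 were common among genes. Of genes found in 10 to 90% of deep wells, 34.9% had a share at least 25 percentage points higher at day 4 than in uncrushed wells, with a median difference of 19.9 points. Gpr84 differed by 37.2 points, Gpr183 by 29.8, Hcar2 by 22.1 and Ptafr by 19.9. Hcar2 and Ptafr sat near the median gene, and 2 of the 4 passed 25 points. From day 2 to day 4, 11% of such genes gained 25 points or more, and Gpr84 did so with 26 points. From uncrushed to day 2 the background was 9.14%, and 0 of the 4 receptors within it gained as much, Hcar2 having 20.6 points.

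On the scale of mean log2(FPKM + 1) over deep wells, Gpr84 stood at 1.24 ± 2.37 (SD over 39 wells) in uncrushed wells, 1.89 ± 3.08 (25 wells) at day 2 and 4.20 ± 4.27 (24 wells) at day 4. Its day 4 difference of 2.96 was positive on plates 1 and 2 (2.34 and 4.03) and negative on plate 3 (-0.78, with 2 day 4 wells). A difference of 1 or more upward at day 4 was found for 26.5% of 11089 genes and downward for 0.712%, with a median of 0.50 over all of them. Among the 5 receptors that passed the same filter, Gpr84, Hcar2 (1.45) and Gpr183 (1.49) exceeded 1, Ptafr had 0.71 and Fpr2 -0.31. Fpr1 (0.35) and Ptger4 (-0.04) did not pass the filter of detection in 5% of wells. On plate 3 Hcar2 (-1.20) and Gpr183 (-1.73) were negative too, and positive on the other plates. Over all wells, where 9.40% of genes exceeded 1, Gpr84 had 1.97, Hcar2 1.03 and Gpr183 1.02. Without the wells with conflicting labels Gpr84 had 3.34, Hcar2 1.64, Gpr183 2.41 and Ptafr 0.25, where 29.2% of genes exceeded 1. At day 2, 13.8% of 9716 genes in deep wells exceeded 1, as did Hcar2 (1.54), while Gpr84 had 0.65, Gpr183 0.58 and Ptafr 0.85. The Hcar2 value includes 4 wells rich in neutrophil markers, among its 9 day 2 wells. Without such wells Hcar2 was found in 5 of 19 day 2 wells and 6 of 38 uncrushed wells. Fpr1 had 1.57 at day 2 but passed the filter only through its 5 day 2 wells, all rich in neutrophil markers, so no count is drawn from it.

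**Figure D2:**
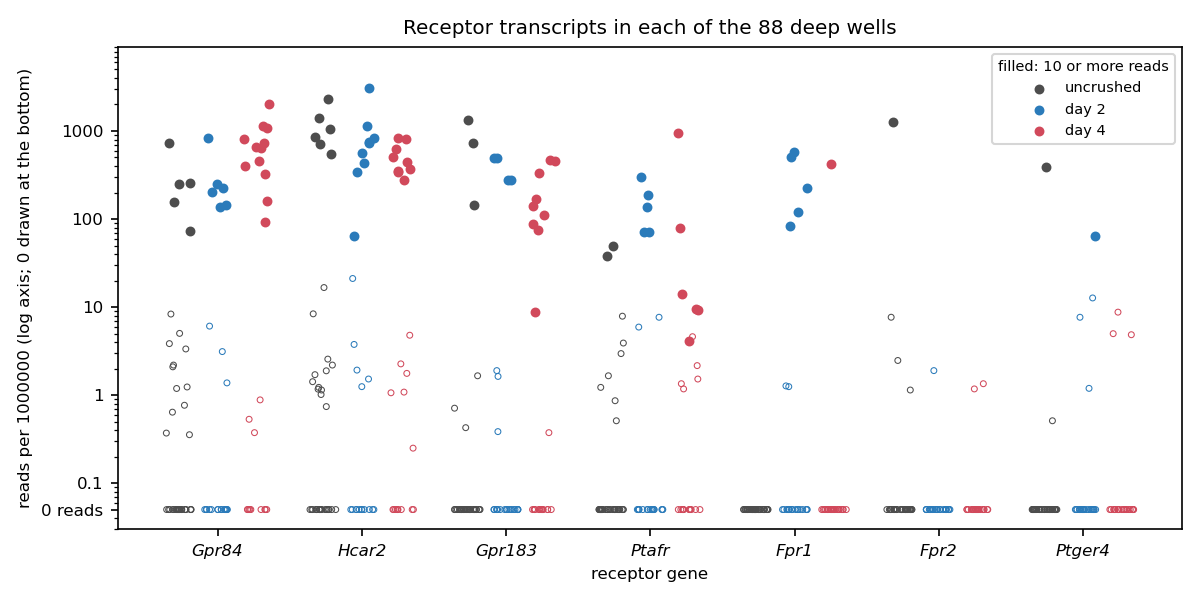
Reads per 1000000 of each receptor in every deep well, on a log axis with 0 drawn at the bottom, by group. Filled points have 10 or more reads. Gpr84, Hcar2 and Fpr1 fall into wells with many reads and wells with few, while Ptafr at day 4 runs down to 4.10 reads per 1000000.

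Hcar2, the receptor for ketone bodies, was found in 24 of the 88 deep wells, and Gpr84 in 23. Its share was 15.4% uncrushed (5.86 to 30.5), 36% at day 2 (18 to 57.5) and 37.5% at day 4 (18.8 to 59.4). In the wells that held it, uncrushed levels were 542, 715, 854, 1043, 1423 and 2302 reads per 1000000. Day 2 wells ran from 64.3 through a median of 738 to 3090, and day 4 wells from 278 through 442 to 824. The uncrushed wells that held Hcar2 thus lay at or above the middle of the day 4 wells, and 4 of the 6 stood above the highest day 4 well. Of the 9 day 2 wells with Hcar2, 4 were rich in neutrophil markers, and without such wells Hcar2 was found in 6 of 38 uncrushed, 5 of 19 day 2 and 8 of 22 day 4 wells. When wells with at least 3 markers of neutrophils or of rods were dropped, its share was 18.8%, 29.4% and 27.8%.

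Gpr183, which reads oxysterol gradients, showed a like pattern. Its share was 7.69% uncrushed (1.62 to 20.9), 16% at day 2 (4.54 to 36.1) and 37.5% at day 4 (18.8 to 59.4). The 3 uncrushed wells, all on plate 3, held 143, 736 and 1322 reads per 1000000. The well at 1322 held 3 of the 12 monocyte and macrophage markers beside 10 of the 11 microglia markers. At day 2 the 4 wells held 277, 279, 491 and 499, and at day 4 the 9 wells ran from 8.80 through a median of 142 to 464. Of the 3 uncrushed wells 2 therefore lay above every day 4 well. Gpr84 went the other way, its median in holding wells being higher at day 4 (651) than uncrushed (249).

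**Figure D3:**
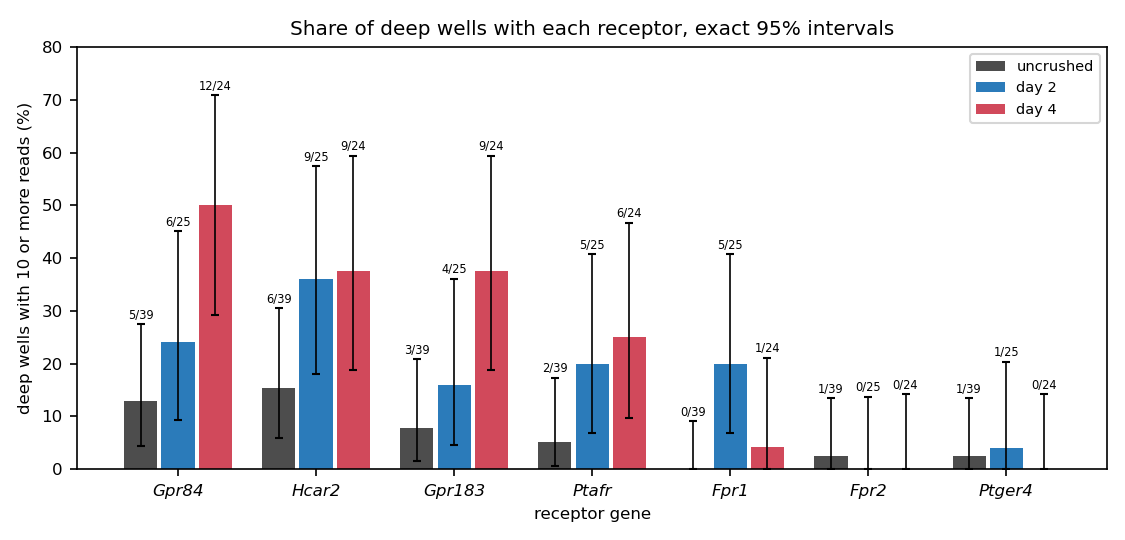
Bars give the percent of deep wells with 10 or more reads of each receptor in each group, with exact 95% intervals and the counts above them. Gpr84 and Gpr183 are highest at day 4 (12/24 and 9/24), Hcar2 is near equal at day 2 and day 4 (9/25 and 9/24), and Fpr1 is highest at day 2 (5/25).

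Counting the shallow wells too, at FPKM 1 or more, gave a smaller spread between groups. Gpr84 passed this level in 15 of 54 uncrushed, 10 of 36 day 2 and 22 of 54 day 4 wells, and Hcar2 in 13, 14 and 20 wells. In shallow wells 1 read or part of a read passes FPKM 1, and no shallow well held more than 2.5 reads of Gpr84 or 4 of Hcar2. The shallow wells thus carry little information on single receptors, and all results on wells below rest on the deep ones.

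Co-detection was read within each group. At day 4, Gpr183 was found in 9 of 12 wells with Gpr84 (75%, interval 42.8 to 94.5) and in 0 of 12 without it. That 0 allows a share of up to 25% by the approximate limit of 3 divided by the number of wells. The same limit is used wherever a count of 0 is said to allow a share. The exact upper bound is higher, here 26.5%. Hcar2 was found in 8 of 12 with (66.7%, 34.9 to 90.1) and in 1 of 12 without (8.33%, 0.211 to 38.5). At day 2 Hcar2 was found in 4 of 6 with Gpr84 and 5 of 19 without, and Gpr183 in 3 of 6 and 1 of 19. In uncrushed wells Hcar2 was found in 3 of 5 and 3 of 34, and Gpr183 in 1 of 5 and 2 of 34. Without the wells with conflicting labels, day 4 gave Gpr183 in 6 of 7 and 0 of 5 wells, and Hcar2 in 5 of 7 and 0 of 5. In every group both receptors were more frequent beside Gpr84.

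This excess has to be read against all genes, since wells with Gpr84 held more genes. At day 4 they held a median of 8441 genes against 3275 in wells without, and at 50000 thinned reads 4593 against 1410. At day 4, 63.8% of genes found in 10 to 90% of wells were at least 25 percentage points more frequent in wells with Gpr84. At day 2 this was 54.6% and in uncrushed wells 49%. At 50 points the day 4 share was 17.6%, and Hcar2, with 58.3 points, belonged to it. At 75 points it was 1.20% (96 of 8014 genes), and Gpr183, with 75 points, belonged to it. Hcar2 also passed 50 points in uncrushed wells (51.2; background 15.3%) but not at day 2 (40.4; background 17.1%). Over all groups 62.0% of genes passed 25 points and 9.52% passed 50, as did Hcar2 (15 of 23 wells with Gpr84, 9 of 65 without, 51.4 points) and Gpr183 (13 of 23 and 3 of 65, 51.9 points). The cuts of 50 and 75 points were chosen after these values were seen.

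The comparison within gene-rich wells, those at or above the median gene number of their group, kept the order. At day 4 Gpr183 was found in 9 of 9 gene-rich wells with Gpr84 and 0 of 3 without, and Hcar2 in 8 of 9 and 1 of 3. Over all groups, Hcar2 was found in 15 of 20 gene-rich wells with Gpr84 and 6 of 25 without, and Gpr183 in 13 of 20 and 3 of 25. The background at 25 points was 39% at day 4 and 41.3% over all groups. The part of gene number in these counts was not tested further.

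**Figure D4:**
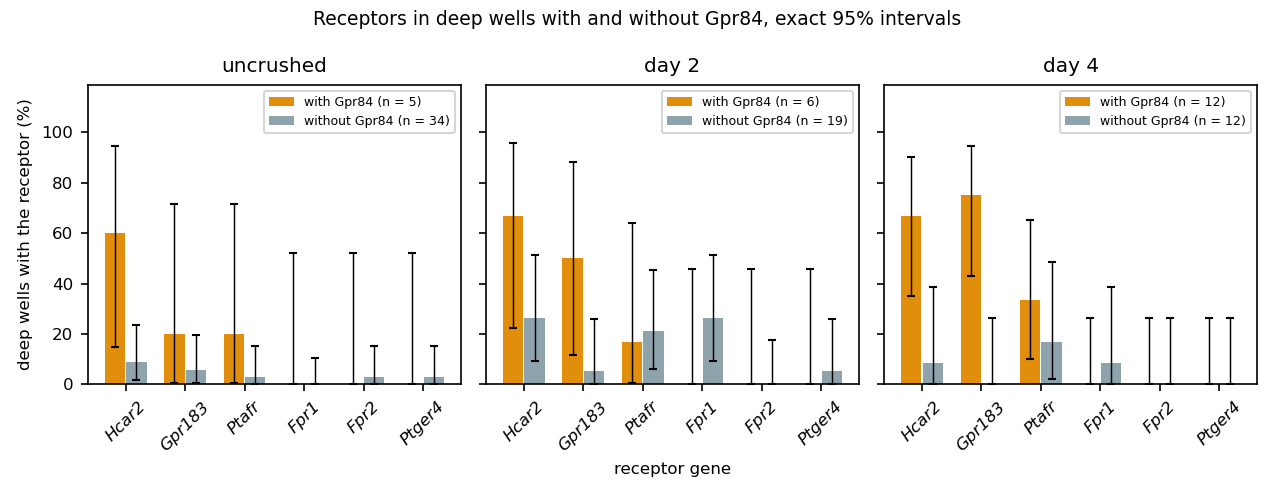
Percent of deep wells with each of 6 receptors among wells with and without Gpr84, by group, with exact 95% intervals. At day 4, Gpr183 stands at 75% with Gpr84 and 0% without, and Hcar2 at 66.7% and 8.33%. Fpr1, found in 1 day 4 well, stands at 0% with Gpr84.

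Ptafr, the receptor for platelet-activating factor, did not follow this pattern clearly. It was found in 2 of 39 uncrushed wells, 5 of 25 at day 2 and 6 of 24 at day 4. Wells with Gpr84 held it in 1 of 5 uncrushed, 1 of 6 day 2 and 4 of 12 day 4 cases, and wells without Gpr84 in 1 of 34, 4 of 19 and 2 of 12. The 4 day 4 wells with both held 4.10, 9.17, 9.46 and 14 reads per 1000000 of Ptafr. The 2 day 4 wells with Ptafr and no Gpr84 held 78.1 and 955. The well at 955 held 3 of the 12 monocyte and macrophage markers and 5 of the 11 microglia markers. At 30 reads for detection, 1 of 12 day 4 wells with Gpr84 kept Ptafr, against 2 of 12 without. Both of these day 4 wells without Gpr84 carried conflicting labels. Without such wells, plate 2 had Ptafr in 3 of 7 day 4 wells with Gpr84 and 0 of 3 without. Plate 3 had it in 0 of 2 without. The day 4 contrast for Ptafr thus rests on which wells are counted.

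Gpr84, Hcar2 and Gpr183 were all found in 11 deep wells, of which 8 were from day 4, 2 from day 2 and 1 from an uncrushed eye. That is 2.56% of uncrushed, 8% of day 2 and 33.3% of day 4 wells. The 8 day 4 wells came from plate 1 (3 wells) and plate 2 (5 wells), and the 5 were left without the wells with conflicting labels. Tnf, the cytokine tumour necrosis factor, was found in 10 of the 11, and Il1a, interleukin-1 alpha, in 11 of 11. All 8 at day 4 held both cytokines. The 6 wells with Gpr84 but neither Hcar2 nor Gpr183 held Tnf in 1 and Il1a in 2.

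Tnf was found in 14 deep wells over all groups, and all 14 held Gpr84, 13 held Hcar2 and 10 held Gpr183. Il1a was found in 26, of which 18 held Gpr84, 16 Hcar2 and 14 Gpr183. Tnf and Il1a thus differed in how closely they kept to Gpr84: 0 of 65 wells without Gpr84 held Tnf, which allows a share of up to 4.62%, and 8 of 65 held Il1a. Without the wells with conflicting labels, 6 of 12 day 4 wells held Tnf and 6 held Il1a, each time all 6 with Gpr84 and 5 with all 3 receptors. Over all groups, Tnf was 60.9 points and Il1a 66.0 points more frequent in wells with Gpr84 than in wells without. Of all genes found in 10 to 90% of wells, 9.52% passed 50 points there. The 11 wells with all 3 receptors were also rich in genes, with a median of 8888 genes against 3855 in the 6 wells with Gpr84 alone. Over all groups Gpr84 itself was not higher where the others joined it. Its median was 325 reads per 1000000 in the 11 wells with all 3 (91.5 to 1147). In the 12 other Gpr84 wells it was 357 (73.4 to 2030). These pooled medians mix groups. At day 4 they were 531 (8 wells) and 867 (4 wells), and at day 2 139 (2 wells) and 237 (4 wells). The 1 uncrushed well with all 3 had 249, and the 4 others a median of 207.

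Hcar2 without Gpr84 was found in 9 wells, and 5 of these were rich in neutrophil markers, each with 5 or more of 11. In these 5 wells Hcar2 measured 64.3 to 3090 reads per 1000000 (median 738), and in the 15 Gpr84 wells 278 to 1423 (median 569). The well at 3090, which also held Fpr1 at 572, had 13 rod and 8 microglia markers beside its 6 neutrophil markers. The day 4 well among the 5 had 12 rod markers. Reads of these wells cannot be assigned to 1 cell type. The 4 other wells with Hcar2 and no Gpr84 held 434 to 2302. Gpr183 without Gpr84 was found in 3 wells, all with fewer than 5 neutrophil markers.

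The formyl peptide receptors were found in wells rich in neutrophil markers. Of the 9 deep wells with 5 or more of the 11 neutrophil markers (6 at day 2, 2 at day 4, 1 uncrushed), 6 held Fpr1 and 1 held Fpr2. Fpr1 measured 83.0, 122, 223, 506 and 572 reads per 1000000 in its 5 day 2 wells and 426 in its day 4 well, and was found in 0 of 39 uncrushed wells, which allows up to 7.69%. Fpr2 measured 1276 in 1 uncrushed well. In the other 79 deep wells neither was found. The 9 wells held summed neutrophil marker reads of 11470 to 108108 per 1000000, with S100a8, S100a9, Mmp9 and Csf3r in 9 of 9 and Cxcr2 in 8 of 9, while Ly6g was in 2 and the granule genes Camp, Ltf and Ngp in 0.

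None of these 9 wells held Gpr84 or Gpr183, and a count of 0 of 9 allows a share of up to 33.3%. That limit lies above their shares over all deep wells, 23 of 88 for Gpr84 and 16 of 88 for Gpr183. How many equally frequent genes were also missing from these 9 wells was not counted. Hcar2 was held by 5 of the 9 wells and Ptafr by 3. They held 0 to 8 microglia markers (median 2), against a median of 8 in the 71 wells with 0 to 2 neutrophil markers. A further 8 wells had exactly 3 neutrophil markers, namely S100a8, S100a9 and Csf3r, at summed levels of 123 to 1634 reads per 1000000. These 8 held 8 to 11 microglia markers, 5 of them held Gpr84 and 4 Gpr183, and 0 held an Fpr. The line of 5 markers was drawn after these values were seen. With the 9 wells left out, Fpr1 and Fpr2 were found in 0 wells of each group, and Gpr84 was found in 5 of 38, 6 of 19 and 12 of 22. Ptafr was then found in 2 of 38, 2 of 19 and 6 of 22, its day 2 share being 10.5% against 20% with all wells.

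**Figure D5:**
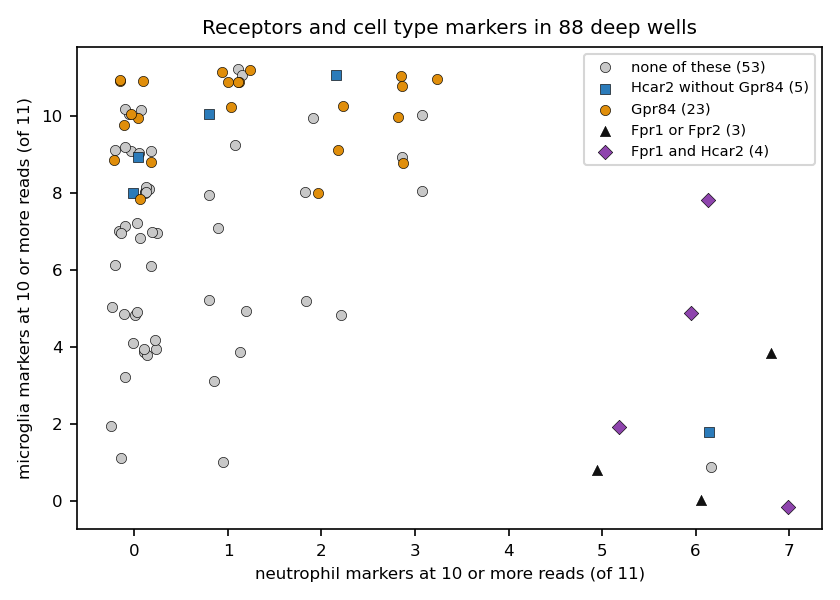
Each point is 1 deep well, placed by how many of 11 neutrophil and 11 microglia markers it held (jittered), and coloured by receptors. Wells with Fpr1 or Fpr2 lie at 5 or more neutrophil markers, and all 23 Gpr84 wells lie at 3 or fewer.

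Ptger4, the prostaglandin E2 receptor, was found in 1 uncrushed well at 392 reads per 1000000 and in 1 day 2 well at 63.7, neither with Gpr84. At day 4 it was found in 0 of 24, which allows a share of up to 12.5%. Of 12 genes of the cyclic AMP branch that Ptger4 signals through, 8 were tested at day 4 and 1 differed by 1 or more: Prkar1a, a regulatory subunit of protein kinase A, at 2.99 on the log2 scale (4.86 ± 3.54 in 24 day 4 wells, 1.88 ± 2.95 in 39 uncrushed wells). The list's median difference was 0.49 against 0.50 over all genes.

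Genes that supply or break down ligands of these receptors had 11 of 17 members tested at day 4. Upward differences of 1 or more were found in 6, beside 26.5% of all genes, and downward in 0, with a median of 1.04. Of these 6, Lpcat1, Pafah1b2 and Ch25h were found in 0 uncrushed deep wells at 10 reads, so they owed their place among the tested genes mainly to day 4. Over all wells 2 of 11 differed upward, beside 9.40% of all genes, with a median of 0.39 against 0.21. The largest were Ptges3, a prostaglandin E synthase and Hsp90 co-chaperone (3.00), and Lpcat2, which makes platelet-activating factor (2.00). Ptgs1, cyclooxygenase-1, had 0.09. Pafah1b1 had 0.42 and, like Pafah1b2, encodes a subunit of an enzyme that inactivates platelet-activating factor. Of the genes that couple the receptors, 19 of 21 were tested, 6 differed upward and 0 downward, with a median of 0.69, and over all wells 0 of 19 did, with a median of 0.14. The count in deep wells is near the 26.5% of all genes. Gnb1 and Gng5, subunits of the G protein beta-gamma dimer, had 1.99 and 1.67, and Rgs2 and Rgs10, which shut G proteins off, had -0.40 and -0.52. Without the conflicting wells Ptgs1 had 1.48, Gnb1 1.04 and Rgs2 0.77, so these 3 values rest on which day 4 wells are counted.

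Among 52 other myeloid G protein-coupled receptors 30 were tested, 8 differed upward and 1 downward, with a median of 0.63. That upward count is close to the 26.5% of all genes, and over all wells 3 of 30 differed upward and 0 downward. Without the wells with conflicting labels the upward counts were 6 of 9 for the ligand genes and 4 of 18 for coupling. They were 2 of 8 for the cyclic AMP branch and 11 of 27 for these receptors. Beside these, 29.2% of all genes differed upward, and 0 members of these lists differed downward. The 6 ligand genes included Pafah1b2 and Ch25h, found in 0 uncrushed deep wells at 10 reads, so the limit given above holds here too. The complement receptors C5ar1 and C3ar1 had 2.56 and 1.73, Gpr34 had -0.43, and P2ry12, the purine receptor of resting microglia, had -1.59 (6.44 ± 4.21 in 39 uncrushed wells, 4.85 ± 3.66 in 24 day 4 wells). P2ry12 was negative on plates 1 and 3 (-2.94 and -3.25) and 0.34 on plate 2, and without the conflicting wells it had -0.32, with Gpr34 at 0.80. Of 10 inflammatory genes picked for their company with Gpr84 in earlier work on these data, 9 differed upward, led by Ccl12 (5.36) and Ccl2 (4.26), which attract monocytes. Il1b had 1.02 and Tnfaip3 0.41. Without the conflicting wells 8 of the 10 differed upward and Il1b turned to -1.06. That list is not independent evidence, since it was chosen on these wells.

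The genes whose levels ran closest to each receptor over the 88 deep wells were named by Pearson correlation of log2(reads per 1000000 + 1), among 4609 genes found in at least 8 wells. The values are a description over wells that share plates and gene numbers. For Gpr84 they were the chemokine gene Ccl4 (0.75), Tnf (0.71) and Nop56 (0.65), and Ccl4 was found in 20 of 23 Gpr84 wells. For Gpr183 they were Tacc1 (0.72), Ppil2 (0.72) and Tnfsf13b (0.71), for Hcar2 Utp3 (0.66), Sppl2a (0.64) and Dusp1 (0.62), and for Ptafr Prkcd (0.60), Ptprc (0.59) and Ier3 (0.59). Between the receptors, Gpr84 had 0.49 with Gpr183, 0.43 with Hcar2 and -0.14 with Fpr1. With the log2 number of genes in the well, Gpr84 had 0.57, Hcar2 0.54, Gpr183 0.61 and Ptafr 0.39.

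The receptors differ in how cleanly reads can be assigned to them. Gpr84 (chr15:103308235-103310612, minus strand) shares 681 of its 1725 exon bases with the antisense gene Gm49482, whose reads came to 51.1% of those of Gpr84. Gm49482 was found in all 23 Gpr84 wells and had at most 1 read in any other deep well, so the 2 cannot be told apart without strand. Hcar2 (chr5:123863570-123865499, minus strand, 1 exon) and Gpr183 (chr14:121952551-121965195, minus strand) shared 0 words of 50 bases with other genes. Fpr2 (chr17:17887824-17893952) shared 31.5% of its words, mostly with Gm5966, and Ptger4 14.4%, so their reads are uncertain.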

How the data were processed

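Single cells sorted by flow cytometry were lysed, their cDNA was amplified in 1 tube and libraries were made with the Nextera XT kit, per the labels' protocols. Trim Galore 0.4.4, Trimmomatic 0.36, cutadapt 1.16, STAR 2.7.2b and featureCounts 1.6.1 and the builds GRCm38.p6 and mm10 are named in the submitters' processing notes, with no role; settings are not given in the sources used here. The authors deposited FPKM for 55364 genes in each well, with the gene length in bases in another deposited column.

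FPKM times length in kilobases summed to 1000000 in every well. The most frequent product above 0 was taken as 1 read, which gave reads per well; 40.9% of values under 100 reads were whole within 0.01, so the reads are estimates and no count test was run. Wells of 50000 or more reads were called deep. Groups follow the titles; 18 day 4 wells of plate 1 carry a treatment tag for day 2. Differences are of mean log2(FPKM + 1), over genes that reached FPKM 1 in 5% of the wells compared. Thinning drew 50000 reads per well (seed 7), and the procedure was tested on simulated data.

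Named genes were the 7 receptors, Tnf and Il1a, the 2 highest and 2 lowest day 4 differences of each list among members at 10 reads in 10% of deep wells, and the 3 best-correlated genes of each receptor found in 8 or more deep wells. Markers and overlapping genes were named as checks. Members, lists and the cut at 50000 reads were chosen with earlier results of these data known.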

Additional observations from a re-analysis of the deposited data

How the results depend on the processing

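The alternatives that were chosen after seeing the data were leaving out the wells with 5 or more neutrophil markers, adding the reads of Gm49482 to Gpr84, leaving out the conflicting wells from co-detection, cytokine and list counts, and taking the plate as a term in the level differences. In 286 of 307 comparisons of a main share or co-detection difference with an alternative, the value stayed within the exact interval of the main one, and 21 moved out of it. Of 521 other comparisons 96 moved, among them 45 of 231 level differences, by more than 1 standard error over wells. Of 240 co-detection differences, those in single groups included, 40 moved. The share of deep wells with Gpr84 kept its order from uncrushed to day 4 under every alternative run, from 10.3 to 17.9% uncrushed and from 35.7 to 61.1% at day 4, and adding Gm49482 changed no count. Over all groups, the share with minus without Gpr84 ran from 45.3 to 58.5 points for Hcar2 and from 41.7 to 56.7 for Gpr183.

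Values that moved mostly went to 0. Without wells holding 3 or more neutrophil or rod markers, or 5 or more neutrophil markers, Fpr1 (day 2, day 4), Fpr2 (uncrushed) and Ptger4 (day 2) were at 0% of wells and the Fpr1 difference by Gpr84 was 0 points, as was Ptger4 in uncrushed wells (0%) under the first. Without plate 1, Fpr1 at day 4, Fpr2 in uncrushed wells and the day 2 wells with Gpr84, Hcar2 and Gpr183 together were at 0%, and the Ptafr difference by Gpr84 was 36 points against 15.3. Without plate 2, Ptger4 in uncrushed wells was at 0%. Without plate 3, Gpr183 in uncrushed wells, Ptger4 at day 2 and the uncrushed wells with Gpr84, Hcar2 and Gpr183 together were at 0%. Without the 18 wells with conflicting labels, or grouped by the treatment tag, Fpr1 at day 4 was at 0%. No co-detection or level difference of the 7 receptors that passed its cut changed sign, whereas Il1b, of the lists, did (-1.06 without the conflicting wells). No paired analysis was possible because replicate numbers only name wells in accession order, but each plate held every group. With the plate as a term, the day 4 level differences from uncrushed wells were 2.87 for Gpr84, 1.41 for Hcar2, 1.64 for Gpr183 and 0.64 for Ptafr, and none of 21 level differences moved. Depth limits what absence means, since the shallowest deep well held 60079 reads and 10 were needed to call a receptor found.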
